A study of Mus musculus with 19 samples.

Results

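Imprinted fetal growth genes are genes of which, in many tissues, only the copy from the mother or only the copy from the father is transcribed, and which control the growth of the embryo, the placenta and fetal organs. The 10 examined here were chosen by symbol, with earlier results of these data known. They are the noncoding RNAs H19 and Meg3, the growth factor Igf2, the transmembrane regulator Dlk1 and the zinc finger factors Peg3 and Plagl1. The others are the hydrolase-like Mest, the adaptor Grb10, the sarcoglycan Sgce and the retrotransposon-derived Peg10. All 10 were among the 55536 genes counted, and 9 of them, all but Igf2, were among the 16026 genes with enough reads for the model fitted across all genes. RNA was sequenced from mouse kidney in 3 groups of libraries: 8 from obstructed kidneys given zalfermin (UUO zalfermin), 7 from obstructed kidneys given vehicle (UUO vehicle) and 4 from healthy kidneys. UUO usually means unilateral ureteral obstruction, in which the ureter of one side is tied so that the kidney scars, and the series title describes zalfermin as an analogue of the hormone FGF21. The sample labels name the condition of all 15 obstructed libraries MASH where the series design names UUO, call the healthy kidneys untreated where the design says vehicle, and name the drug by a code, here read as zalfermin. Strain, age, sex, dose and duration are not stated in those sources. Nor do the labels tie each library to its own animal, and the p-values therefore reflect the spread among these libraries, which may be technical in part.

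Imprinted genes sit in clusters, and the parental copy that is read is set by DNA methylation laid down in the egg or sperm at a control region. In the mouse, H19, Meg3 and, in most tissues, Grb10 are read from the maternal copy, whereas Igf2, Dlk1, Peg3, Mest, Plagl1, Sgce and Peg10 are read from the paternal copy. Most are abundant in the fetus and placenta and fall to low levels in adult organs, the kidney included, and several have been described as raised again when adult tissue repairs itself. Read counts per gene add up both copies, so the parental origin of the RNA was not measured. Whole-kidney RNA also mixes all cell types, and a change in the number of cells of a type and a change in RNA per cell cannot be told apart.

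The 10 genes lie at 7 places in the genome (GRCm38, GENCODE M21 annotation). H19 (ENSMUSG00000000031, chr7:142575529-142578143, minus strand) and Igf2 (ENSMUSG00000048583, chr7:142650766-142666816, minus strand) are 72622 bases apart. Dlk1 (ENSMUSG00000040856, chr12:109452823-109463336, plus strand) and Meg3 (ENSMUSG00000021268, chr12:109541001-109571726, plus strand) are 77664 bases apart, and the imprinted noncoding RNA Rian begins 32213 bases beyond Meg3. Sgce (ENSMUSG00000004631, chr6:4674350-4747207, minus strand) and Peg10 (ENSMUSG00000092035, chr6:4747306-4760517, plus strand) start 98 bases from each other and are read in opposite directions. Mest (ENSMUSG00000051855) is at chr6:30723547-30748465 on the plus strand, Peg3 (ENSMUSG00000002265) at chr7:6703892-6730431 on the minus strand, Plagl1 (ENSMUSG00000019817) at chr10:13060504-13131694 on the plus strand and Grb10 (ENSMUSG00000020176) at chr11:11930508-12038683 on the minus strand.

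Promoter sequences are shown for 4 of the genes that were called higher in obstructed kidneys and that RefSeq's table covers. Methylation of CpG sites at control regions marks one parental copy, and whether these windows lie in such regions was not examined. Each window runs from 250 bases before to 50 bases after the start (RefSeq, GRCm38.p6), is written 5′ to 3′ on the strand of the gene, and has every CpG in capitals. Grb10 is shown at a pair of its starts, which differ in CpG content.
Grb10, chr11:12037371-12037670, minus strand: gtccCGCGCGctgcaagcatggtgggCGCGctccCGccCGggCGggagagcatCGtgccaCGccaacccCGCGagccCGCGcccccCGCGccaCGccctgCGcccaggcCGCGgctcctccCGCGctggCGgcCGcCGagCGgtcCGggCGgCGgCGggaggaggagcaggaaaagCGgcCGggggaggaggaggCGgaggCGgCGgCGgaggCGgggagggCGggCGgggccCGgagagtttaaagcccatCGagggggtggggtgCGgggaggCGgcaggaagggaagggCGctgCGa
Grb10, chr11:12027922-12028221, minus strand: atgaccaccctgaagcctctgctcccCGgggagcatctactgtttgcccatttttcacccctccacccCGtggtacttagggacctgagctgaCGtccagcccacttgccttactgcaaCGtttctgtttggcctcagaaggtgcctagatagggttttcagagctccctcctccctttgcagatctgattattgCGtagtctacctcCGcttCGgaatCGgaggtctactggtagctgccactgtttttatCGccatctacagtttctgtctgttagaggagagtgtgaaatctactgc
Peg3, chr7:6730370-6730669, minus strand: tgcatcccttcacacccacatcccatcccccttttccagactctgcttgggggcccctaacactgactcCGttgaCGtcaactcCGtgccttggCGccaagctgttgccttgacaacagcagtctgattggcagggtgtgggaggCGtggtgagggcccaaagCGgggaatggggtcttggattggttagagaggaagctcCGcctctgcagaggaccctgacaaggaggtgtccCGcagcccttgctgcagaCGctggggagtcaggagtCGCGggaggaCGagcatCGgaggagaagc
Mest, chr6:30737800-30738099, plus strand: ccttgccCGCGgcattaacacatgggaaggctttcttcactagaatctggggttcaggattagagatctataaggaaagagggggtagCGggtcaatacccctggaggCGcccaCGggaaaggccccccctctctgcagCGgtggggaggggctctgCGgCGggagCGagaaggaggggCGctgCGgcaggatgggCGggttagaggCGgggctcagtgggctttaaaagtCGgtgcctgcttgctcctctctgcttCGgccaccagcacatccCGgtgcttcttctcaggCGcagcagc
Meg3, chr12:109540746-109541045, plus strand: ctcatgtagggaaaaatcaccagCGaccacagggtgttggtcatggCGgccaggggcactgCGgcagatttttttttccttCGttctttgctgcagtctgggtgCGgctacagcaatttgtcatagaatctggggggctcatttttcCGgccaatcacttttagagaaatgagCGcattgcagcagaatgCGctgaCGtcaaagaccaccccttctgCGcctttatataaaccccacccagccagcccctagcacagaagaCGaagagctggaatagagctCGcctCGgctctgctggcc
The first Grb10 window holds 45 CpG sites, a number that 1.93% of the 32841 RefSeq promoter windows reach, against a median of 7. The second Grb10 window holds 9 CpG sites, Mest 17, and Peg3 and Meg3 13 each, numbers reached by 45.8%, 31.4% and 37.9% of windows. The letters TATAAA, on either strand, are in the Meg3 window and in none of the other 4, and 13.6% of all windows hold them. The letters GGGCGG, on either strand, are in the first Grb10 window and in the Mest window, and 35.7% of all windows hold them. Of the 10 genes 7 had entries in the RefSeq table, 14 in all, and H19, Sgce and Peg10 had none. No methylation was measured, so these windows describe the genes and not their state in these kidneys.

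MicroRNAs also lie within some of these genes, and the mature forms of miR-675, miR-335 and miR-770, from H19, Mest and Meg3, are shown because host RNA levels such as those below say nothing of the processed product. The sequences are RefSeq's (GRCm38.p6), with the seed, bases 2 to 8, in capitals.
miR-675-5p, in H19: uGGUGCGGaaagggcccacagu
miR-675-3p, in H19: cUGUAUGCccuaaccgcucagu
miR-335-5p, in Mest: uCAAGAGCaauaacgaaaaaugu
miR-335-3p, in Mest: uUUUUCAUuauugcuccugacc
miR-770-5p, in Meg3: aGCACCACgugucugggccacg
miR-770-3p, in Meg3: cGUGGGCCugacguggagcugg
No seed is shared among the 6. The hairpin genes Mir675, Mir335 and Mir770 had 0 reads in all 19 libraries, which were not made for small RNAs. All 84 bases of Mir675 lie in H19 exons and all 94 of Mir770 in Meg3 exons, on the same strand. How reads that fall on both genes were counted is not given, so the 0 of Mir675 and Mir770 may come from the counting.

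Libraries held 12209122 to 14844103 counts. All levels below are CPM, each gene's count relative to its library's total after TMM scaling, and the TMM factors were 1.02 to 1.08 in zalfermin, 1.02 to 1.11 in vehicle and 0.751 to 0.843 in healthy libraries. UUO vehicle replicate 6 stood apart: 19788 genes were detected in it, whereas the other vehicle libraries had 21374 to 22216, and mitochondrial transcripts made up 1.10% of its counts, against 3.09% to 4.21%. The kidney label was checked with 7 tubule markers, all detected in every group. Their summed level was 5840 to 8025 CPM in zalfermin, 5318 to 9341 CPM in vehicle and 19740 to 20230 CPM in healthy kidneys. The 9341 CPM was in vehicle replicate 6, against a vehicle median of 5682 CPM. That library also had the lowest vehicle sum of injured tubule markers, 1641 CPM against a median of 2381 CPM.

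Obstructed kidneys given vehicle had more RNA of most of these genes than healthy kidneys. Of the 9 genes tested, 7 rose and 0 fell (edgeR's quasi-likelihood F test, Benjamini-Hochberg over all 16026 genes, adjusted p under 0.05), where 36.2% of all tested genes rose and 28.6% fell, 64.8% in either direction. The 7 were H19, Peg10, Meg3, Mest, Grb10, Peg3 and Sgce, and Plagl1 and Dlk1 were not called. H19, Peg10, Meg3 and Dlk1 had at most 1, 8, 10 and 7 reads in any healthy library. They passed the count filter through their reads in obstructed libraries, so the filter favoured a rise in them over a fall. In 4 of the 9, H19, Peg10, Grb10 and Sgce, every vehicle library lay above every healthy one, which held for 24.7% of all tested genes. The median log2 fold change of the 9 genes was 1.10, beside 0.09 over all tested genes. Zalfermin kidneys compared with vehicle kidneys showed no called change in these genes, as described further on.

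**Figure D1:**
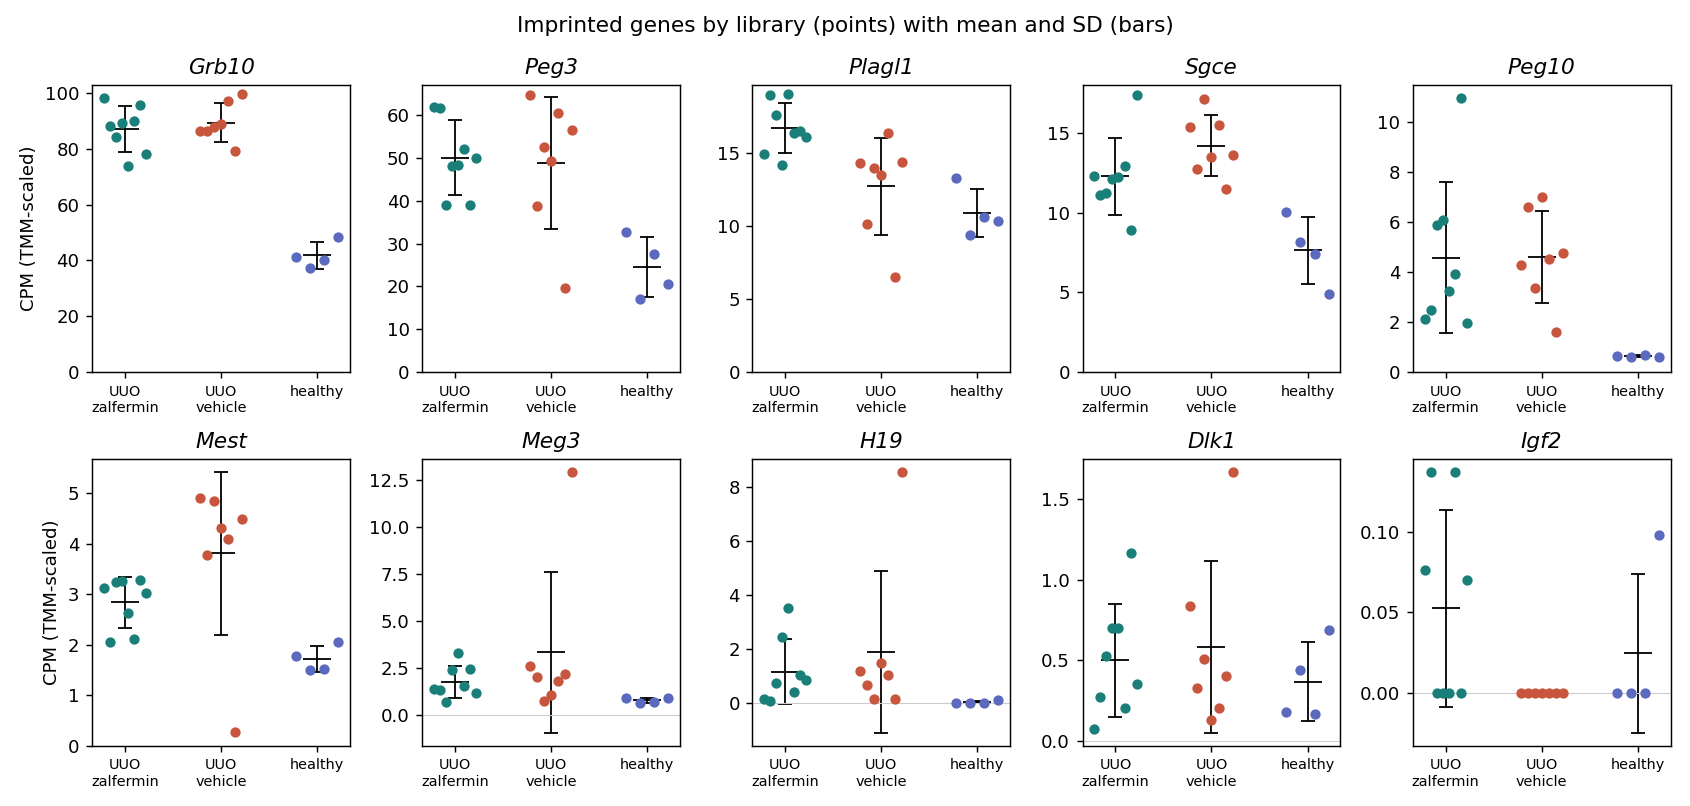
CPM (linear axis, its own scale per gene) of the 10 imprinted genes in UUO zalfermin (8), UUO vehicle (7) and healthy (4) kidneys; each point is 1 library and the bars are mean and SD. Grb10, Peg10 and Sgce separate vehicle from healthy kidneys, 1 vehicle library is far above the rest for Meg3 (12.9 CPM) and H19 (8.55 CPM), and 1 vehicle library is far below the rest for Mest (0.268 CPM).

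Grb10 encodes an adaptor that binds the insulin and IGF1 receptors and restrains their signalling, and it was the most abundant of the 10 genes. The lowest, median and highest levels of Grb10 were 73.9, 88.6 and 98.3 CPM in zalfermin kidneys and 79.1, 87.7 and 99.8 CPM in vehicle kidneys, while the healthy kidneys had 41.3, 37.1, 40.3 and 48.4 CPM. Every obstructed library of either kind was above every healthy one. The rise in vehicle over healthy kidneys was 2.14-fold (log2 1.10, SE 0.09, edgeR adjusted p = 8.69e-10). Its spread was also the smallest in the obstructed groups, with a coefficient of variation of 9.42% in zalfermin and 7.85% in vehicle kidneys.

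Peg3 encodes a large zinc finger protein linked to growth and maternal behaviour. Peg3 ranged over 39.0, 49.1 and 62.0 CPM (lowest, median, highest) in zalfermin kidneys and over 19.6, 52.4 and 64.6 CPM in vehicle kidneys, and the healthy kidneys had 32.7, 17.1, 27.6 and 20.6 CPM. One vehicle library, replicate 6, lay inside the healthy range, and the other 6 lay above it. Peg3 rose 1.99-fold in vehicle over healthy kidneys (log2 0.99, SE 0.24, edgeR adjusted p = 0.000882).

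Plagl1, also called Zac1, encodes a zinc finger factor that halts the cell cycle and regulates other imprinted genes. Its lowest, median and highest levels were 14.2, 16.4 and 19.02 CPM in zalfermin kidneys and 6.49, 13.9 and 16.3 CPM in vehicle kidneys, with 13.2, 9.41, 10.6 and 10.3 CPM in healthy kidneys. Vehicle and healthy kidneys overlapped, and the log2 difference of vehicle over healthy was 0.22 (95% interval -0.13 to 0.57, edgeR adjusted p = 0.280). Zalfermin kidneys all lay above the healthy ones, and there Plagl1 was called higher (log2 0.61, SE 0.17, edgeR adjusted p = 0.00383). That one contrast with healthy kidneys passed and the other did not shows no difference between the obstructed groups, whose own test is given further on.

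Sgce, epsilon-sarcoglycan of the dystrophin-associated membrane complex, and Peg10, a gag-pol-like protein needed for the placenta, share one divergent promoter region. Sgce had 8.92, 12.2 and 17.4 CPM as its lowest, median and highest values in zalfermin kidneys and 11.51, 13.6 and 17.1 CPM in vehicle kidneys, against 10.1, 8.17, 7.42 and 4.91 CPM in healthy kidneys. For Peg10 these values were 1.97, 3.58 and 10.97 CPM in zalfermin kidneys and 1.61, 4.51 and 7.02 CPM in vehicle kidneys, against 0.623, 0.622, 0.674 and 0.589 CPM in healthy kidneys. The vehicle libraries lay above all healthy ones for both genes, by a narrow margin for Sgce. Sgce rose 1.86-fold in vehicle over healthy kidneys (log2 0.89, SE 0.18, edgeR adjusted p = 0.000117) and Peg10 rose 7.22-fold (log2 2.85, SE 0.53, edgeR adjusted p = 6.5e-05). Healthy kidneys had 6 to 8 reads of Peg10 per library, so the low side of that fold rests on few reads.

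Mest encodes a protein of the alpha/beta hydrolase fold that is abundant in embryonic mesoderm and in expanding fat tissue. Its lowest, median and highest levels were 2.06, 3.07 and 3.29 CPM in zalfermin kidneys and 0.268, 4.31 and 4.91 CPM in vehicle kidneys, and the healthy kidneys had 1.78, 1.51, 1.52 and 2.06 CPM. All vehicle libraries other than replicate 6 had at least 3.79 CPM and so lay above both other groups. Mest rose 2.22-fold in vehicle over healthy kidneys (log2 1.15, SE 0.40, edgeR adjusted p = 0.0148), and without vehicle replicate 6 the log2 difference was 1.31 (edgeR adjusted p = 2.76e-06). On the opposite strand Mest shares 912 of its exon bases, 23.1%, with Copg2, and whether reads were counted by strand is not given, so part of its count may be Copg2 RNA. Copg2 was not called in vehicle over healthy kidneys (58.8 ± 9.13 CPM, n = 7, and 65.9 ± 4.36 CPM, n = 4; SD).

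H19 is a noncoding RNA that restrains fetal growth and is read opposite in parental origin to its neighbour Igf2. Its raw reads per library in zalfermin kidneys were 2, 1, 11, 38, 45, 6, 14 and 12. In vehicle kidneys they were 17, 10, 2, 22, 15, 2 and 133, and in healthy kidneys 0, 0, 0 and 1. All obstructed libraries had H19 reads, but 2 vehicle libraries and 2 zalfermin libraries had at most 2. Averaged per group H19 was 1.14 ± 1.20 CPM in zalfermin, 1.88 ± 2.99 CPM in vehicle and 0.0246 ± 0.0491 CPM in healthy kidneys (SD, n = 8, 7 and 4). H19 was called higher in vehicle over healthy kidneys (log2 5.91, SE 1.71, edgeR adjusted p = 0.00446). With 1 read in all healthy libraries together the size of that fitted value is loose: the summed reads per total count were 114 times higher in vehicle kidneys, with a 95% counting interval of 20.2 to 4519, and 44.9 times higher without vehicle replicate 7, with an interval of 7.8 to 1801.

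Meg3 is a maternally read noncoding RNA with tumour suppressor activity in cell culture. The raw reads of Meg3 in zalfermin libraries were 18, 19, 10, 37, 42, 22, 33 and 16. Vehicle libraries had 37, 31, 11, 16, 26, 32 and 201, and healthy libraries 10, 7, 8 and 9. Vehicle replicate 7 had several times the reads of any other library, and 1 vehicle library fell inside the healthy range in CPM (0.701 CPM, against 0.622 to 0.890 CPM). Meg3 was called higher in vehicle over healthy kidneys (log2 2.11, SE 0.68, edgeR adjusted p = 0.00984), and without vehicle replicate 7 the log2 difference was 1.15 (edgeR adjusted p = 0.0255). With voom the same contrast was not called (log2 1.44, adjusted p = 0.11), and with vehicle replicates 6 and 7 both left out, a setting chosen after seeing the data, it was not called either (log2 1.03, adjusted p = 0.0509).

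Dlk1, a membrane protein related to the Notch ligands that holds back differentiation of fat and muscle precursors, was near the lower end of what could be tested. Its raw reads were 1, 4, 8, 11, 9, 3, 16 and 5 in zalfermin libraries, 12, 5, 8, 2, 3, 6 and 26 in vehicle libraries and 2, 5, 2 and 7 in healthy libraries. The groups overlapped throughout. The log2 difference of vehicle over healthy kidneys was 0.68 with a 95% interval of -0.65 to 2.01 (edgeR adjusted p = 0.391), so at this depth a several-fold change would not have been told from none.

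Igf2, the fetal growth factor that acts through the IGF1 and insulin receptors, was almost absent from the counts. It had 1, 2, 0, 0, 0, 2, 0 and 1 reads in zalfermin libraries, 0 in each of the 7 vehicle libraries and 0, 0, 0 and 1 in healthy libraries. The 0 of 98285937 counts in vehicle libraries allows up to 0.0305 CPM of raw totals, without TMM scaling, a limit that covers counting error only. For scale, 3 reads over the group would be 0.0276 CPM of raw totals in zalfermin and 0.0539 in healthy libraries. These are no limits there, since both groups had reads, with TMM-scaled means of 0.0525 CPM in zalfermin and 0.0246 CPM in healthy libraries. As CPM of raw totals these means were 0.0553 in zalfermin and 0.0184 in healthy libraries. Two-sided exact permutation tests of the mean CPM, adjusted over the 3 comparisons, gave p = 0.231 for zalfermin against vehicle, 0.463 for vehicle against healthy and 0.463 for zalfermin against healthy. On its own strand Igf2 shares 3596 of its 5723 exon bases, 62.8%, with the gene model Gm49394, which had 0 reads in all 19 libraries. How reads that fall on both models were counted is not given, so the level of Igf2 may be higher than these counts. Its counts cannot therefore be set against those of H19.

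Per kilobase of exon, which allows genes to be ranked, the mean levels in zalfermin kidneys were 9.59 CPM per kilobase for Grb10, 3.75 for Peg3, 2.14 for Plagl1, 1.16 for Sgce, 0.721 for Mest, 0.687 for Peg10, 0.465 for H19, 0.0968 for Meg3 and 0.0886 for Dlk1. In vehicle kidneys the order was Grb10 with 9.83 CPM per kilobase, Peg3 with 3.66, Plagl1 with 1.63, Sgce with 1.34, Mest with 0.967, H19 with 0.763, Peg10 with 0.689, Meg3 with 0.183 and Dlk1 with 0.103. In healthy kidneys it was Grb10 with 4.597 CPM per kilobase, Peg3 with 1.84, Plagl1 with 1.39, Sgce with 0.720, Mest with 0.435, Peg10 with 0.0941, Dlk1 with 0.0653, Meg3 with 0.0424 and H19 with 0.00998. Grb10 was above Peg3 in every library of every group. Peg3 and Plagl1 overlapped in vehicle and healthy kidneys, Plagl1 and Sgce in vehicle kidneys, and Sgce and Mest in vehicle and healthy kidneys. H19, Peg10 and Mest overlapped in both obstructed groups, as did Meg3 and Dlk1 in all 3 groups. H19 also overlapped Sgce, Meg3 and Dlk1 in both obstructed groups, and Peg3 and Plagl1 in vehicle kidneys. Peg10 overlapped Sgce in zalfermin kidneys and Dlk1 in healthy kidneys. This list of overlaps is not complete, and the order of genes whose libraries overlap is loose.

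**Figure D2:**
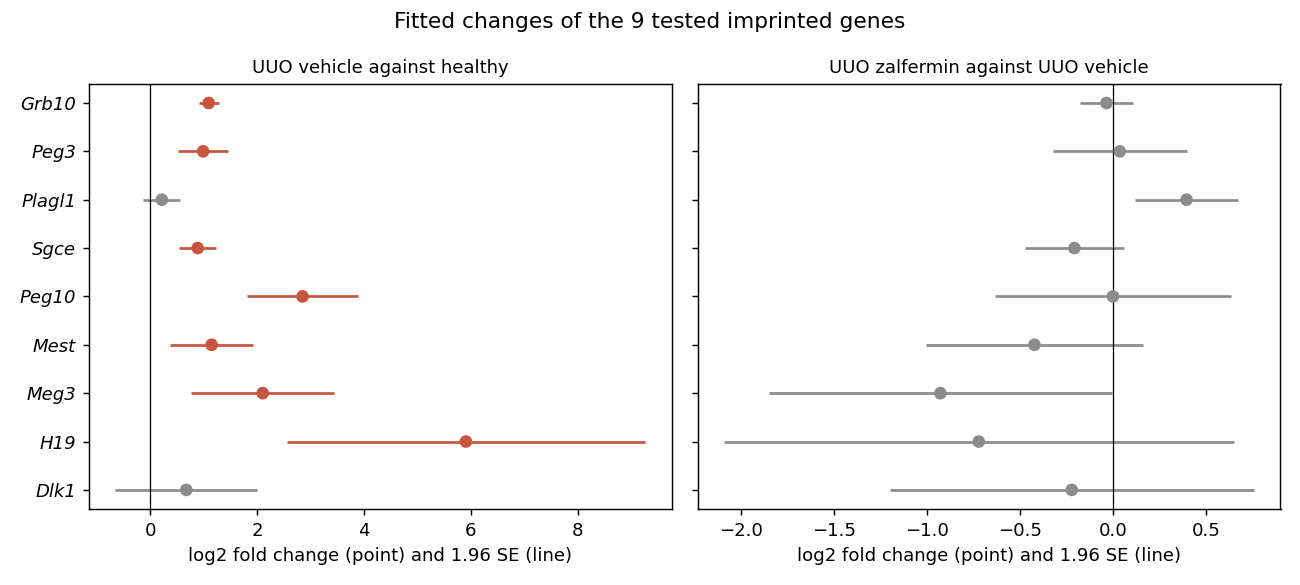
Fitted log2 fold changes (points) with their approximate 95% intervals (lines) for the 9 tested imprinted genes, UUO vehicle against healthy (left) and UUO zalfermin against UUO vehicle (right); coloured points were called at an adjusted p under 0.05. The left panel runs from 0.22 for Plagl1 to 5.91 for H19 with 7 genes called, and in the right panel 0 are called.

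Zalfermin was then set against vehicle in obstructed kidneys, the comparison that bears on the drug. Of the 9 tested genes 0 rose and 0 fell by edgeR's quasi-likelihood F test with Benjamini-Hochberg adjustment, where 0.867% of all tested genes rose and 0.942% fell, 1.81% in either direction. In 0 of the 9 did every zalfermin library lie above every vehicle library, as 0.349% of all tested genes did. At an unadjusted p under 0.05 there was 1 gene of the 9, Plagl1, where 15.5% of all tested genes were under it. DESeq2 called 0 and voom called 1, Mest, as lower. Over all 16026 tested genes DESeq2 called 260 higher and 342 lower, and voom 502 higher and 646 lower. The median log2 fold change of the 9 genes was -0.21, beside 0.01 over all tested genes.

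The intervals differ widely in what they leave room for. For Grb10 the log2 difference of zalfermin over vehicle was -0.04 with a 95% interval of -0.18 to 0.11, and for Peg3 it was 0.04 with an interval of -0.33 to 0.40. Sgce had -0.21 with an interval of -0.47 to 0.06, and Peg10 had 0.00 with an interval of -0.63 to 0.63. The 3 genes of fewest reads had the widest intervals: -2.09 to 0.65 for H19, -1.85 to -0.01 for Meg3 and -1.20 to 0.76 for Dlk1, as normal approximations from the SE. None of these 7 passed the test (edgeR adjusted p 0.355 to 0.998). Since vehicle replicate 7 holds the highest vehicle value of H19, Meg3 and Dlk1, leaving it out turned those 3 log2 differences, to 0.58, 0.03 and 0.31, still uncalled (edgeR adjusted p = 0.708, 0.978 and 0.801).

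Plagl1 had the smallest edgeR p-value of the 9, and Mest, whose p-value was larger than those of Meg3 and Sgce too, is described because voom and a fit without vehicle replicate 6 called it. Plagl1 averaged 16.7 ± 1.74 CPM in zalfermin kidneys and 12.7 ± 3.31 CPM in vehicle kidneys (SD, n = 8 and 7), and all 8 zalfermin libraries lay above the vehicle median. Its log2 difference was 0.39 (SE 0.14, edgeR adjusted p = 0.169), and without vehicle replicate 6, the lowest, it was 0.27 (edgeR adjusted p = 0.168). Mest averaged 2.84 ± 0.51 CPM in zalfermin kidneys and 3.82 ± 1.61 CPM in vehicle kidneys, and 0 of 8 zalfermin libraries lay above the vehicle median. The log2 difference of Mest was -0.42 (SE 0.30, edgeR adjusted p = 0.518). Vehicle replicate 6, with 4 Mest reads against 58 to 76 in the other vehicle libraries, lay below every zalfermin library, and every other vehicle library lay above every zalfermin library. Without that one library Mest was called lower (log2 -0.64, SE 0.14, edgeR adjusted p = 0.0156).

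Zalfermin kidneys against healthy kidneys share their healthy libraries with the comparison of vehicle against healthy, and the values stand beside it only as a description. There 6 of the 9 genes were called higher and 0 lower (edgeR), where 37.3% of all tested genes were called higher and 27.0% lower, 64.3% in either direction. The log2 differences were 5.19 for H19, 2.85 for Peg10, 1.06 for Grb10, 1.03 for Peg3, 0.68 for Sgce and 0.61 for Plagl1 among those called. Mest (0.73, edgeR adjusted p = 0.110), Meg3 (1.18, edgeR adjusted p = 0.138) and Dlk1 (0.46, edgeR adjusted p = 0.57) were not called. The groups did not overlap for Peg3, Plagl1, Grb10 and Peg10, a pattern shown by 29.4% of all tested genes. Here too H19, Peg10, Meg3 and Dlk1 had passed the count filter through obstructed libraries. The H19 fold again rests on 1 healthy read, with summed reads per total count 66.1 times higher in zalfermin kidneys and a 95% counting interval of 11.7 to 2631.

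A single library carried much of the spread of the noncoding genes. In UUO vehicle replicate 7 Meg3 reached 12.9 CPM, against at most 3.26 CPM in the zalfermin libraries and at most 2.59 CPM in the other vehicle libraries, and this log2 gap of 1.94 to the next obstructed library was the largest among the 16026 tested genes. H19 had 8.55 CPM there, against at most 3.49 CPM in zalfermin and 1.46 CPM in other vehicle libraries, the fifth largest gap. Rian, downstream of Meg3 in the same imprinted cluster, had 6.69 CPM, against at most 3.03 CPM in zalfermin and 1.19 CPM in other vehicle libraries. Dlk1 at the other end of that cluster was also highest there, with 1.67 CPM against at most 1.17 and 0.841 CPM. The protein-coding members Peg3, Mest, Plagl1, Sgce and Peg10 lay below the highest of the other obstructed libraries, and Grb10, at 99.8 CPM, was barely above the next library at 98.3 CPM.

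The same library was high in matrix genes of fibroblasts. Postn, which encodes the matrix protein periostin, had 89.0 CPM in vehicle replicate 7, against 7.54 to 33.2 CPM in zalfermin and 14.9 to 34.3 CPM in the other vehicle libraries. Over the 10 fibroblast and pericyte markers, all detected in every group, the summed level was 4944 CPM in that library and ranged over 1668 to 2611 CPM in zalfermin, 2767 to 4944 CPM in vehicle and 201 to 296 CPM in healthy kidneys. All 10 of those markers rose in vehicle over healthy kidneys, and in zalfermin over vehicle kidneys 3 fell, Col1a1, Col1a2 and Col3a1 (edgeR, adjusted p under 0.05). The part of fibroblast number or state in the rise of the imprinted genes was not tested.

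**Figure D3:**
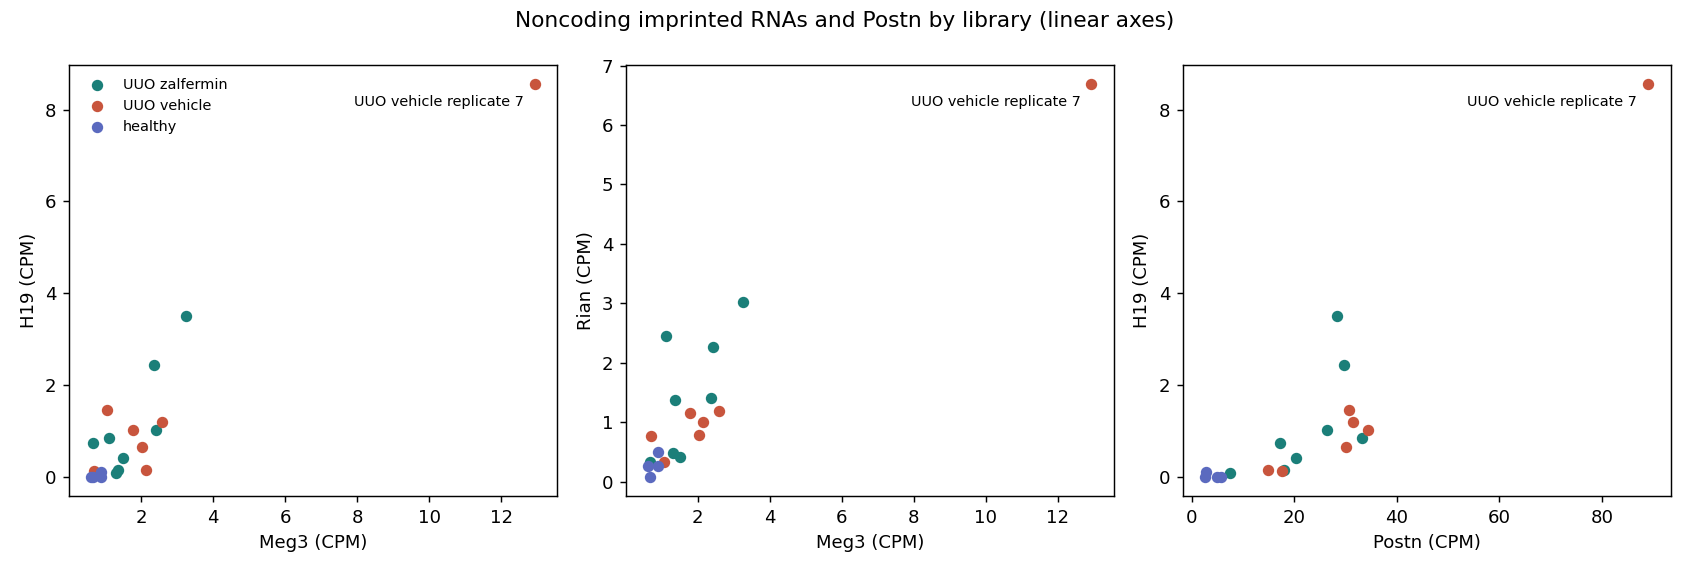
H19 against Meg3, Rian against Meg3 and H19 against Postn, all in CPM on linear axes, 1 point per library, coloured by group. UUO vehicle replicate 7 is the point at the top right of all 3 panels (H19 8.55, Meg3 12.9, Rian 6.69 and Postn 89.0 CPM), and the healthy libraries sit at the lower left.

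The adrenal gland, which lies on the kidney and is rich in several imprinted transcripts, was checked as another source. Of its 10 cortex markers, the aldosterone synthase gene Cyp11b2 was at 0 in all 3 groups, Nr5a1 at 0 in vehicle and healthy kidneys, Hsd3b1 at 0 in vehicle kidneys and Cyp11b1 at 0 in healthy kidneys. The summed level of the 10 was 4.79 to 17.5 CPM in zalfermin, 5.77 to 12.3 CPM in vehicle and 2.76 to 4.71 CPM in healthy kidneys, and it was 9.07 CPM in vehicle replicate 7. Of the 4 adrenal markers tested, Akr1b7 and Mc2r rose in vehicle over healthy kidneys (edgeR). Fat markers summed to 49.3 to 242 CPM in zalfermin, 49.9 to 153 CPM in vehicle and 44.8 to 60.2 CPM in healthy kidneys over 6 genes, with vehicle replicate 7 at 80.3 CPM. Of the 5 fat markers tested, 0 were called in vehicle over healthy kidneys (edgeR). In zalfermin over healthy kidneys 4 were called higher, Adipoq, Plin1, Cfd and Cidec, where 37.3% of all tested genes were. Skeletal muscle markers, of which Myh4 and Myod1 were at 0 in all groups, summed to at most 1.94 CPM in zalfermin, 2.83 CPM in vehicle and 2.22 CPM in healthy kidneys. Of the 2 muscle markers tested, Acta1 rose in vehicle over healthy kidneys (log2 3.05, edgeR adjusted p = 0.00112) and Mylpf was not called. Markers of injured tubule (2183 to 3223 CPM in zalfermin, 1641 to 2663 CPM in vehicle and 19.3 to 35.4 CPM in healthy kidneys, 5 genes) and of cycling cells (77.6 to 154 CPM in zalfermin, 92.5 to 138 CPM in vehicle and 6.94 to 17.6 CPM in healthy kidneys, 5 genes) moved with obstruction too. So did macrophage markers, with 594 to 881 CPM in zalfermin, 749 to 958 CPM in vehicle and 129 to 154 CPM in healthy kidneys over 5 genes. Urothelium markers, 6 genes, summed to 19.6 to 60.4 CPM in zalfermin, 28.1 to 60.5 CPM in vehicle and 11.98 to 27.8 CPM in healthy kidneys. Of these 6, all tested, Upk1b, Krt5 and Trp63 rose in vehicle over healthy kidneys and 3 were not called (edgeR). Of all tested genes 36.2% rose in that contrast. The part of any of these cell types in the rise of the imprinted genes was not tested.

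Within groups the 9 tested genes did not vary as one. After subtracting group means, the median Pearson r of log2 CPM over the 36 pairs of tested members was 0.26 over 19 libraries, and 0.07 without vehicle replicate 6. H19 and Meg3 had r = 0.70, Meg3 and Rian 0.78, H19 and Dlk1 0.59, and Meg3 and Dlk1 0.60, over 19 libraries, and without vehicle replicate 7 these were 0.48, 0.61, 0.41 and 0.37. Peg3 and Plagl1 had r = 0.83, Mest and Plagl1 0.76, and Peg3 and Mest 0.71, and without vehicle replicate 6 these were 0.57, -0.05 and -0.13. That library was the lowest vehicle library for Peg3, Mest, Plagl1, Grb10, Sgce and Peg10, as the plot of values by library shows for Mest and Peg3. Sgce and Peg10, though their starts are 98 bases apart, had r = -0.30, and -0.53 without vehicle replicate 6. The points share libraries and depth, and these values are descriptions.

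**Figure D4:**
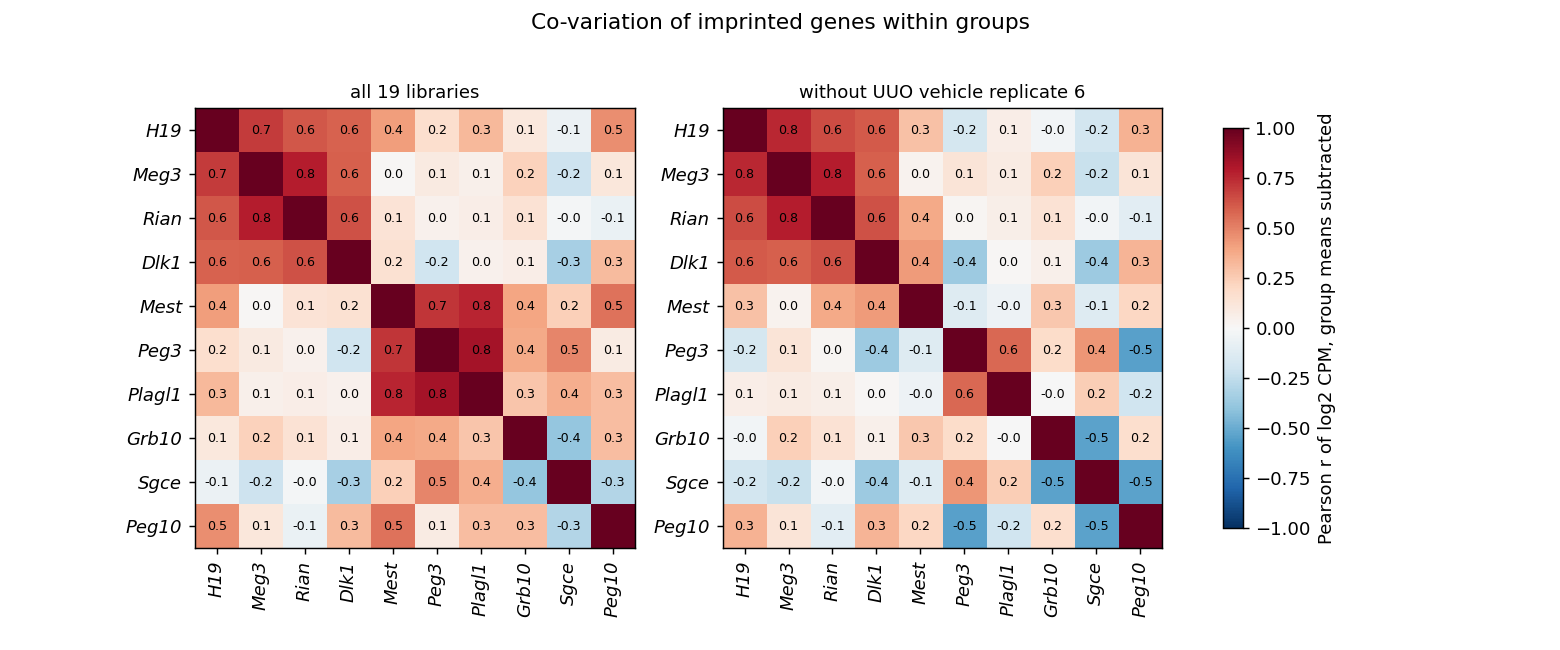
Pearson r of log2 CPM with group means subtracted, for the 9 tested imprinted genes and Rian, over all 19 libraries (left) and without UUO vehicle replicate 6 (right). H19, Meg3, Rian and Dlk1 form a block in both panels, whereas the block of Mest, Peg3 and Plagl1 shrinks to Peg3 with Plagl1 (0.57) in the right panel.

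The genes most like each member were sought among 11631 further genes averaging 5 CPM or more, by that r over 19 libraries. For H19 it was Postn (r = 0.82, and 0.72 without vehicle replicate 7), followed by Taf15 (0.77). Meg3 was nearest to Tnxb, a tenascin of connective tissue (0.78, and 0.69 without that library), and F13a1 (0.78 and 0.57), and Dlk1 to Cd248, a marker of perivascular stromal cells (0.74 and 0.64), and Dusp22 (0.70). Sgce was nearest to Sspn, which encodes sarcospan, a partner in the dystrophin-associated complex (0.88, and 0.87 without vehicle replicate 6), and Tril (0.88). Peg3 was nearest to the zinc finger genes Zfp871 (0.97) and Zscan26 (0.96), Plagl1 to Dhx9 (0.94) and Mbtd1 (0.93), Grb10 to Nup155 and Stx16 (both 0.85), and Peg10 to Gnl3 (0.88) and Pak1ip1 (0.85). Mest was nearest to Rap1b (0.98) and Srsf1 (0.97), values of 0.61 and 0.53 without vehicle replicate 6.

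A wider list of 54 other imprinted genes, 46 of them tested, moved in both directions. In vehicle over healthy kidneys the median log2 fold change of the 46 was -0.08, beside 0.09 over all genes. Of the 46, 16 rose, 17 fell and 13 were not called (edgeR), where 36.2% of all tested genes rose and 28.6% fell. This split depends on how libraries are scaled: RLE factors gave 13 higher and 19 lower, upper-quartile factors 18 and 16, and no scaling factors, a setting added after seeing the data that moved the median of all genes to 0.51, gave 26 and 7. Whether each gene of the list is imprinted in the kidney was not measured. The smallest p-values belonged to falls. All 7 tubule markers were also called lower in this contrast (edgeR), and their part was not tested. Ddc, which makes dopamine in the proximal tubule, averaged 51.4 CPM in vehicle and 174 CPM in healthy kidneys (log2 -1.76), and the transporters Slc22a18 and Slc22a2 had log2 changes of -2.10 and -1.61 (edgeR adjusted p = 3.33e-11, 7.47e-11 and 1.55e-07). Among the rises, and named after their values were seen, Nnat averaged 2.37 CPM in vehicle and 0.0456 CPM in healthy kidneys (log2 5.46), the matrix proteoglycan gene Dcn 117 and 31.1 CPM (log2 1.91), and Ndn 6.16 and 1.18 CPM (log2 2.37). From the cluster of Dlk1 and Meg3, Rian rose with a log2 change of 2.62 (edgeR adjusted p = 0.0131, log2 1.65 at the lowest with 1 library left out, and no longer called without vehicle replicates 6 and 7 together) and Dio3, which encodes the enzyme that inactivates thyroid hormone, with 2.24 (edgeR adjusted p = 0.00184). In zalfermin over vehicle kidneys edgeR called 0 of the 46, DESeq2 called 1 higher and voom 2 higher and 1 lower. Over all 16026 tested genes DESeq2 called 260 higher, and voom 502 higher and 646 lower. At an unadjusted p under 0.05 edgeR had 4 higher and 4 lower, where 15.5% of all tested genes were under it in either direction. By edgeR Cobl (log2 0.20, adjusted p = 0.112) and Nnat (log2 -0.96, adjusted p = 0.129) were nearest.

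**Figure D5:**
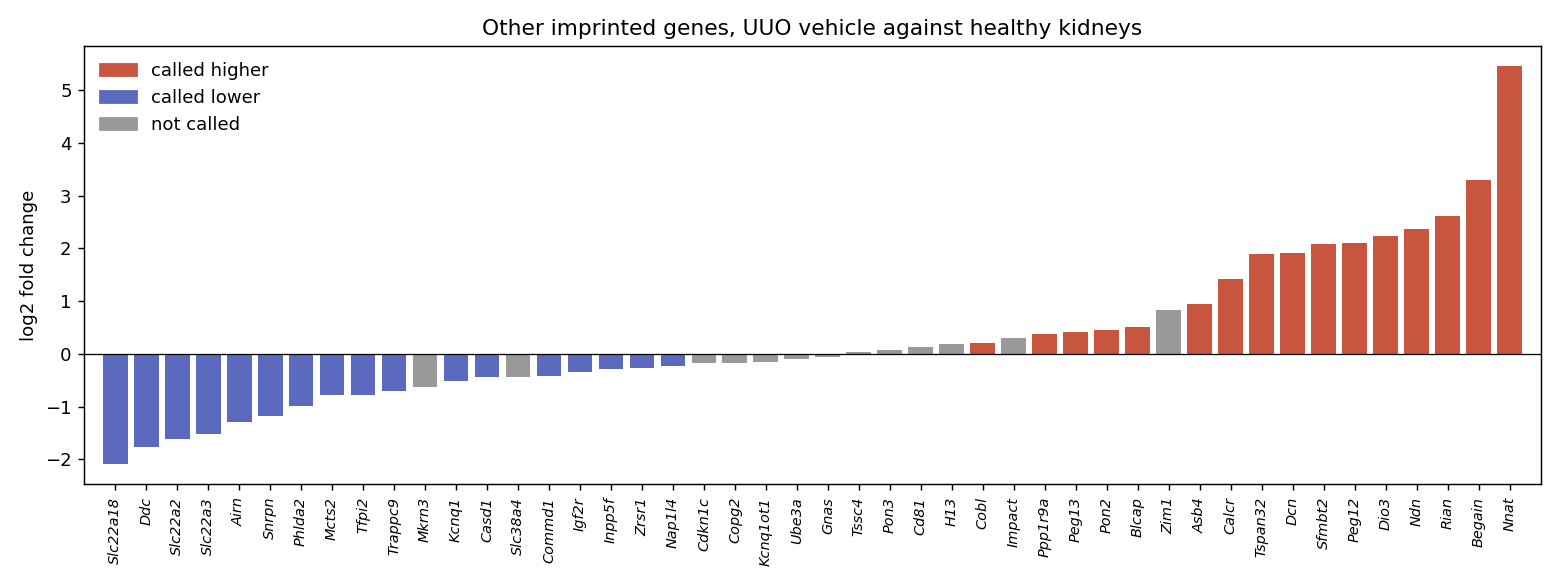
Log2 fold change of UUO vehicle against healthy kidneys for the 46 tested genes of the wider imprinted list, ordered by size and coloured by call. They run from -2.10 for Slc22a18 to 5.46 for Nnat, with 16 called higher and 17 lower.

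The genes that handle IGF2 and related ligands, 16 in all and all tested, also split. In vehicle over healthy kidneys 6 rose and 8 fell (edgeR), where 36.2% of all tested genes rose and 28.6% fell. The median log2 change of the 16 was -0.28, and with no scaling factors 7 rose and 3 fell. Igf2bp2, which encodes an IGF2 mRNA-binding protein, averaged 19.7 CPM in vehicle and 7.97 CPM in healthy kidneys (log2 1.30, edgeR adjusted p = 7.79e-10). The binding protein genes Igfbp5 (log2 -1.42) and Igfbp4 (log2 -0.63) fell (edgeR adjusted p = 3.86e-06 and 1.14e-05), the last losing its call with no scaling factors. In zalfermin over vehicle kidneys 2 of the 16 rose (edgeR), where 0.867% of all tested genes rose. This count was 3 with DESeq2 and 1 with no scaling factors, and voom called 3 higher and 1 lower. Over all 16026 tested genes DESeq2 called 260 higher, no scaling factors gave 82 higher, and voom called 502 higher and 646 lower. Igfbp1, another binding protein gene, which was lower in vehicle than in healthy kidneys (log2 -1.93), averaged 10.7 CPM in zalfermin and 4.02 CPM in vehicle kidneys (log2 1.40, edgeR adjusted p = 0.0253), and Insr, the insulin receptor gene that Grb10 protein binds to, 135 and 105 CPM (log2 0.37, edgeR adjusted p = 0.0301). Both were above the vehicle median in 8 of 8 zalfermin libraries. Igfbp1 lost its call without vehicle replicate 2 or 7 or zalfermin replicate 2 or 5, and Insr without vehicle replicate 2 or 7 or zalfermin replicate 1, 2 or 4, with adjusted p of at most 0.0631 and 0.073.

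Of 15 tested genes that maintain imprints and DNA methylation, 11 were higher, 0 lower and 4 not called in vehicle over healthy kidneys (edgeR), median log2 0.63, where 36.2% of all tested genes were called higher. The 4 not called were Zfp445 (log2 0.20), Ctcf (0.081), Tet1 (0.40) and Tet2 (-0.36). Uhrf1, which brings the maintenance methyltransferase to newly copied DNA, averaged 23.5 CPM in vehicle and 1.38 CPM in healthy kidneys (log2 4.09). The histone methyltransferase gene Ezh2 had a log2 change of 1.25, and the maintenance methyltransferase gene Dnmt1 of 0.82 (edgeR adjusted p = 1.69e-13, 3.14e-08 and 2.23e-06 for the 3 genes). Cycling cell markers, named above, rose in all 5 of 5 genes in the same contrast, and their part was not tested. In zalfermin over vehicle kidneys edgeR called 0 of the 15, while DESeq2 and voom each called 1, Zfp57, as lower (log2 -0.51, edgeR adjusted p = 0.103), the 1 gene of the list with an unadjusted edgeR p under 0.05. Over all 16026 tested genes DESeq2 called 342 lower and voom 646.

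Developmental kidney genes moved in both directions in vehicle over healthy kidneys. Of 15 tested, 4 rose and 2 fell (edgeR), where 36.2% of all tested genes rose and 28.6% fell. The median log2 change of the 15 was 0.00, beside 0.09 over all genes. With RLE factors 4 rose and 4 fell, and with no scaling factors 7 rose and 2 fell. The progenitor genes Six2, Cited1 and Eya1 and the fetal RNA-binding gene Lin28b had too few reads to test. Wnt4, which starts the nephron in the embryo, averaged 21.4 CPM in vehicle and 4.42 CPM in healthy kidneys (log2 2.27, edgeR adjusted p = 5.72e-08). Gdnf (log2 2.64), Hmga2 (3.39, from a mean of 0.0491 CPM in healthy kidneys) and Pax8 (0.30, adjusted p = 0.0504 without healthy replicate 4) were the other rises, and Lhx1 (-0.97) and Wnt11 (-1.10) the falls. In zalfermin over vehicle kidneys Wt1, which marks podocytes in the adult, was called higher (16.4 and 12.2 CPM, log2 0.43, edgeR adjusted p = 0.0269). Wt1 was no longer called without vehicle replicate 2 or 7 or zalfermin replicate 4, 5 or 7, with an adjusted p of at most 0.0633. It was the 1 gene of the 15 called by edgeR in that comparison, beside 1.81% of all tested genes. There voom called 4 higher and no scaling factors left 0 called. Over all 16026 tested genes voom called 502 higher, and no scaling factors gave 82 higher.

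Partner genes of Dlk1 and Sgce are given against the 36.2% of all tested genes called higher and the 28.6% called lower in vehicle over healthy kidneys. Of 11 tested genes of the Notch pathway, which Dlk1 is known to dampen, 9 rose and 0 fell in vehicle over healthy kidneys (edgeR), median log2 0.74, with Notch3 at 1.57, the target gene Heyl at 1.91 and Notch1 at 1.40 (edgeR adjusted p = 8.69e-11, 1.08e-10 and 4.39e-09). Of 9 tested genes of the dystrophin-associated complex, 6 rose and 1 fell, median log2 0.38, against 4 and 1 with RLE factors and 7 and 0 with no scaling factors. Sspn averaged 13.2 CPM in vehicle and 5.83 CPM in healthy kidneys (log2 1.18, edgeR adjusted p = 1.26e-06), and Dag1 had a log2 change of 0.49. In zalfermin over vehicle kidneys edgeR, DESeq2 and voom each called 0 of the 11 and 0 of the 9, and at an unadjusted p under 0.05 edgeR had 3 lower among the 11 and 0 among the 9, beside 15.5% of all tested genes in either direction.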

How the data were processed

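RNA was extracted with NucleoSpin kits and sequenced on a NextSeq after NEBNext Ultra II Directional library preparation, per the labels' protocols. Reads were aligned with STAR 2.7.0f to GRCm38, per the submitters' processing notes. The authors deposited raw read counts per gene, as unscaled whole numbers; how reads were assigned to genes, with or without strand and by which annotation, is not given in the sources used. All 55536 gene identifiers matched GENCODE M21.

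Genes were kept with filterByExpr (minimum count 10, minimum total 15), which left 16026, with 39510 not tested. Genes low in healthy kidneys could pass it through obstructed libraries alone. One quasi-likelihood model (edgeR 4.0.16, R 4.3.3, TMM factors) was fitted to the 19 libraries, and each contrast had a two-sided F test with Benjamini-Hochberg adjustment over all tested genes and a threshold of 0.05. SE is the absolute log2 fold change divided by the square root of F. Library totals, 12209122 to 14844103, set the precision of low genes; intervals cover counting error only where so named. Replicates of a group differed by more than sampling noise (smallest chi-square per degree of freedom 5.89). Igf2, below the filter, had exact permutation tests. The fit was checked on simulated data.

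The members and the lists were chosen with earlier results of these data known. All 10 members are named, and from each other list up to 3 genes of smallest p for vehicle against healthy, up to 2 for zalfermin against vehicle, and the calls in a direction with 5 or fewer; for likeness 2 genes per member, r on log2 CPM with a prior count of 2. Alternatives were RLE, upper-quartile and no scaling, DESeq2 1.42.0, voom with quality weights (limma 3.58.1), no filter, 1 CPM in 10 libraries, 2-group and robust fits, and libraries left out. The labels give no batch. Raw reads were not used here.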

Additional observations from a re-analysis of the deposited data

Results flagged for a closer look

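Among 29 sets of a gene's values within a group, 7 had 1 library set apart from the rest by Dixon's criterion at the 95% level. For normally distributed values chance alone flags about 1 in 20. Sets of few reads are not so distributed, so that rate is no measure for these 7.

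In UUO vehicle replicate 7, Meg3 (12.93 CPM, next vehicle library 2.594) and H19 (8.553 CPM, next 1.458) stood far above the group; summed fibroblast markers were 4944 CPM in it, against a vehicle median of 3259 CPM, and their part was not tested. In UUO vehicle replicate 6, Mest (0.2678 CPM, next 3.788) stood below the group, in the library with the fewest genes detected (19788). Sgce was high in UUO zalfermin replicate 8 (17.41 CPM, next 12.94), and Peg10 in UUO zalfermin replicate 7 (10.97 CPM, next 6.075). H19 and Igf2 in healthy replicate 4 (0.09822 CPM each) were set apart by a single read each over 3 libraries at 0.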

How the results depend on the processing

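No paired analysis was possible because the labels number no replicates, so nothing ties a library of one group to one of another. The counts of members called higher kept within 1.5 times under every alternative run: leaving out each library in turn gave 7 to 7 for vehicle over healthy, 0 to 0 for zalfermin over vehicle and 6 to 6 for zalfermin over healthy. The count called lower in zalfermin over vehicle was 1, Mest, with voom, without vehicle replicate 6 (0 to 1 over libraries left out) and without vehicle replicates 6 and 7 (log2 -0.63). Uncalled zalfermin over vehicle log2 differences changed sign as follows. With libraries left out in turn, H19 ran from -1.20 to 0.58, Meg3 from -1.11 to 0.026, Dlk1 from -0.51 to 0.31, Peg3 from -0.12 to 0.12 and Peg10 from -0.32 to 0.13. Without vehicle replicates 6 and 7 together H19 was 0.35, Meg3 0.088, Dlk1 0.30 and Peg3 -0.10; Peg3 was -0.003357 with no scaling factors and -0.16 with voom, and Peg10 0.001064 with no filter. The causes were not tested, beyond the library left out. In vehicle over healthy kidneys Plagl1 was called higher with voom (log2 0.39) and with no scaling factors (0.64). In zalfermin over healthy kidneys Meg3 and Mest were called higher with no scaling factors and in a fit of the 2 groups, and Mest also with voom. Over all tested genes, no scaling factors gave 9373 higher and 2344 lower in vehicle over healthy, where TMM gave 5799 and 4588 and RLE 5264 and 5150; for zalfermin over vehicle upper-quartile factors gave 105 and 191 and no factors 82 and 175, where TMM gave 139 and 151. The 1 CPM filter dropped H19 and Dlk1, and the fits of the 2 groups compared also dropped Dlk1 in every comparison. H19, Meg3, Dlk1 and Igf2 had few reads, and how far depth rather than the spread between libraries limits them was not tested.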
